A study of Camelus dromedarius with 30 samples.

Results

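The 150 genes whose level in the dromedary kidney medulla most exceeded that in the cortex under control conditions were followed through dehydration and rehydration. RNA from both tissues of 15 male dromedaries aged 4 to 5 years was sequenced, 5 animals per condition: control camels drank freely, dehydrated camels had food but no water for 20 days, and rehydrated camels then drank freely for 3 days more. Each library was made by poly(A) selection from powdered whole cortex or medulla of 1 animal, so each holds every cell type of that piece, and in such bulk samples fewer cells of a type and less RNA per cell cannot be told apart. The members were chosen by level, expressed as CPM, the counted read pairs of a gene per 1000000 counted in its library. Among the 9754 genes (of 22444 in the table) with a mean of at least 10 CPM in the medulla of control camels, they had the highest log2 ratio of mean CPM plus 1 in medulla to mean CPM plus 1 in cortex. WNT7B, CHI3L1, the aquaporins and the solute carriers were left out by name, which removed 5 genes that would otherwise have ranked among them and could be applied only to genes with a symbol.

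The medulla holds the loops of Henle, the collecting ducts and the vasa recta, the looping vessels that run beside them, in an interstitium whose salt and urea concentration rises towards the papilla. This gradient draws water out of the collecting duct and concentrates the urine, and the cells in it live at high osmolality and low oxygen. The cortex holds the glomeruli and most of the proximal and distal convoluted tubule.

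Of the 150 members, 44 had a gene symbol (29.3%, against 33.5% of all genes that reached 10 CPM) and 106 were known only by identifier. The symbols come mostly from the study's own lists of changed genes, so the members that can be named are enriched for genes that moved. The members lay on 35 chromosomes and scaffolds of the CamDro2 assembly, with 12 on chromosome 7, and 10 of them lay within 100 kb of another member, such as MCF2L and F10 on chromosome 14. In medulla of control camels their mean levels ran from 11.1 to 7554 CPM (median 38.0), and 34 stood at 100 CPM or more. In cortex of the same animals the median was 1.91 CPM and 53 members were under 1 CPM. All 5 medulla libraries lay above all 5 cortex libraries for 149 members, as for 38.1% of all genes tested. These control values chose the members, so they are a description with no test. The log2 ratio ran from 6.33 down to 3.10, with the last 5 members at 3.12 to 3.10 and the first 5 genes outside at 3.10 to 3.07, led by PLCL1, so the boundary is not a gap in the data.

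Library totals ran from 12634346 to 20005136 counted read pairs, and 15376 genes, all 150 members among them, passed the filter on low counts and were tested. The tissue labels held against a short list of proximal tubule markers: all 4 of the 22 listed genes that have a symbol were lower in medulla than cortex in both dehydrated and rehydrated camels. A glomerulus list gave no such check: the 1 of its 10 genes with a symbol, SYNPO, was higher in medulla, by a log2 difference of 2.18 in dehydration and 2.33 in rehydration. A loop of Henle list was split: of its 8 genes with a symbol, 3 were called higher in medulla and 3 lower in each condition. Of 10 collecting duct principal cell genes with a symbol, 7 were called higher in each condition, with 2 lower in dehydration and 1 in rehydration. The labels give each library of a group its own animal. One medulla library and one cortex library stood apart: medulla rehydration 3 held the lowest level of 104 of the 150 members within its group, and cortex dehydration 3 the highest level of 101. Values are given with these libraries included, and without them where a result rests on them.

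The members with the highest control ratio held a carrier protein, a vessel growth factor, enzymes and a secreted nuclease. GC, the vitamin D-binding protein of plasma, ranked second, and its levels in medulla of control camels were 395, 167, 677, 399.9 and 187 CPM, against 8.59, 3.11, 4.67, 2.48 and 1.37 CPM in cortex. The lowest medulla library was thus well above the highest cortex library. ANGPT2, angiopoietin 2, a ligand of the TIE2 receptor that remodels vessels, stood at 143, 216, 196, 111 and 154 CPM in medulla and 4.94, 3.43, 1.58, 2.55 and 2.81 CPM in cortex of control camels. Counted per kilobase of exon, which allows levels of different genes to be compared, DNASE1 was the most abundant member in control medulla at 3088 CPM per kb, followed by the unnamed gene ENSCDRG00005006494 at 1497 CPM per kb. DNASE1 codes for the main secreted deoxyribonuclease. PPP1R1B, also called DARPP-32, an inhibitor of protein phosphatase 1, stood at 300.5 CPM per kb and GC at 188 CPM per kb.

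The gene with the highest control ratio of all, ENSCDRG00005015812 on chromosome 30, has no symbol in the sources used here. No read pair was counted for it in any of the 5 cortex control libraries, while the medulla control libraries held 32.4, 173, 76.1, 34.8 and 81.4 CPM. In dehydrated camels the medulla held 91.5, 114, 185, 223 and 119.9 CPM and the cortex at most 0.404 CPM, and in rehydrated camels the medulla held 139, 86.9, 66.9, 106 and 128 CPM and the cortex at most 0.283 CPM. The medulla and cortex ranges were therefore far apart in every condition, in libraries that the choice did not use as well. Its neighbour ENSCDRG00005015929, which starts within 100 kb on the same chromosome, is a member too.

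Whether the difference between tissues was there in camels whose libraries did not choose the members was the first comparison. It was, for nearly all of them: in dehydrated camels 142 of 150 members were higher in medulla than cortex at an adjusted p under 0.05 (the quasi-likelihood test of edgeR, Benjamini-Hochberg adjusted over all tested genes), against 33.2% of all genes tested, and in rehydrated camels 148 of 150 were, against 31.3%. No member was called lower in medulla in either condition, where 30.4% and 27.2% of all genes were. Every adjusted p in this text comes from that fit unless another tool is named. The median log2 difference of the members was 3.34 in dehydration and 3.39 in rehydration, where the median over all tested genes was 0.08 and 0.10. All 5 medulla libraries lay above all 5 cortex libraries for 140 members in dehydration (44.9% of all tested genes) and for 132 in rehydration (27.9%). Leaving out medulla rehydration 3, an alternative chosen after the data were seen, brought the latter to 145 members (41.5% of all tested genes).

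The order among the members was described with the same ratio in the other conditions. When the same ratio was computed in dehydrated camels, 94 of the 150 (62.7% of either list of 150) were again among the top 150 genes, and in rehydrated camels 106 were (70.7%), with 79 in both (52.7%). The median ratio over the members was 3.48 in control, 3.58 in dehydration and 3.49 in rehydration, against 0.49, 0.49 and 0.52 over all tested genes. Across the 150 members, which are not independent replicates, the ratio in dehydration had a correlation of 0.21 with that in control, and the ratio in rehydration one of 0.53. The control ratio chose the members and bounds their range, which by construction lowers these correlations and the overlaps, so neither measures how far the order changed. The members that left the top 150 in dehydration included 25 with a symbol, among them GC, OGDHL, CPA5, RBP7, STC1, NEFM and PPP1R1B. The plot of tissue ratios in the 3 conditions shows the same members.

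**Figure D1:**
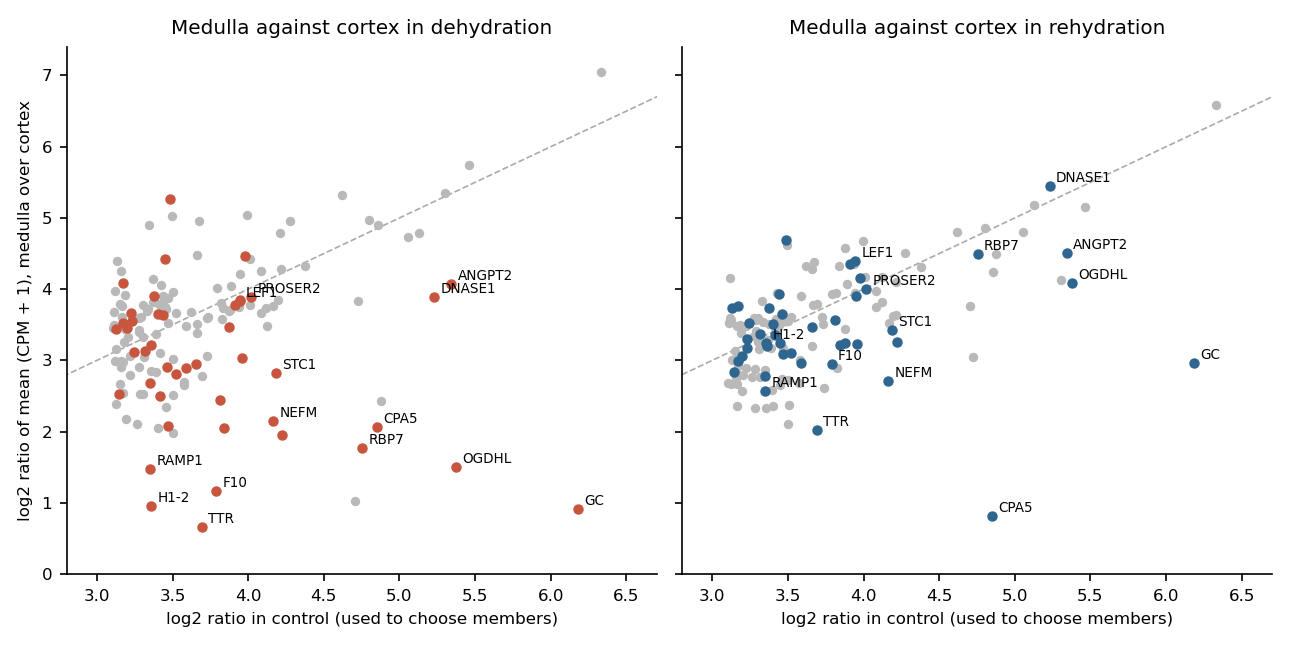
Log2 ratio of mean CPM plus 1 in medulla to mean CPM plus 1 in cortex for each of the 150 members, in dehydrated and rehydrated camels (y axes) against control camels (x axes, the values that chose the members). Every member kept a ratio above 0 in both conditions. The correlation with the control ratio across members was 0.21 in dehydration and 0.53 in rehydration, values that the choice by control ratio lowers.

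The 8 members not called in dehydration were GC, OGDHL, RBP7, F10, TTR, H1-2, RAMP1 and 1 gene without a symbol. They include carriers and blood proteins: TTR carries thyroxine and retinol-binding protein, RBP7 is a cellular retinol-binding protein, and F10 is coagulation factor X. OGDHL is a mitochondrial relative of the oxoglutarate dehydrogenase subunit, and RAMP1 is the partner that turns the calcitonin receptor-like receptor into a receptor for calcitonin gene-related peptide. In rehydration the 2 members not called were CPA5 and TTR. TTR, named here after its values were seen, stood in dehydrated medulla at 102, 48, 20.6, 25.1 and 69.6 CPM and in dehydrated cortex at 19.6, 28.5, 73.2, 3.18 and 42.3 CPM, so the tissues overlapped. Except H1-2, the uncalled members had their highest cortex level of dehydrated camels in cortex dehydration 3, which was so for 7 of these 8. Without that library 145 of the 150 members were called higher in medulla in dehydration, against 32.5% of all genes in that fit.

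Rehydration was then compared with dehydration within the medulla, where neither group had chosen the members. Of the 150 members 4 were called, 1 higher and 3 lower, against 1.99% of all genes tested (1.15% higher and 0.839% lower), and the median log2 change of the members was -0.05 against 0.00 over all tested genes. The members' share, 2.67%, was near that background. The 4 were a linker histone gene, which was higher after rehydration, and CPA5 and a pair of unnamed genes, which were lower. DESeq2 called 7 members (5.39% of the genes to which it gave an adjusted p).

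The gene that rose, ENSCDRG00005004900 (chromosome 20, 17654431 to 17655096), carries no symbol but is described as histone H1.3, a linker histone that binds DNA between nucleosomes. Its levels were 4.19, 3.71, 5.83, 4.55 and 6.68 CPM in dehydrated medulla and 38.1, 55.9, 16.1, 12 and 5.52 CPM in rehydrated medulla. The dehydrated libraries lay in a narrow band, and 1 rehydrated library, number 5, lay inside it, while the other four lay above. The log2 change was 2.36 (SE 0.559, adjusted p = 0.0251), and leaving out any 1 of 6 of the 10 libraries (rehydration 1 or 2, dehydration 1, 2, 3 or 4) raised the adjusted p above the threshold, to 0.0828 at most.

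Against control, the medulla of dehydrated camels had 3 members called, all lower, against 0.969% of all genes tested (0.741% lower), and DESeq2 called 6 (2.37% of its genes). Among the 3 were the same histone gene and H1-2, which codes for another linker histone. The control libraries chose the members, which favours values that are lower elsewhere in medulla. For ENSCDRG00005004900 the control medulla held 23.1, 33.3, 49.4, 5.89 and 58.4 CPM, and the log2 change in dehydration was -2.85 (SE 0.569, adjusted p = 0.00873). One control library, number 4, lay within the range of the dehydrated ones. This call was made after leaving out any single library (adjusted p at most 0.0356) but not with the replicate number as a block (adjusted p = 0.118).

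H1-2 (ENSCDRG00005003606, chromosome 20, 17511172 to 17511813) lies 142.6 kb from that histone gene. Its medulla levels were 29.1, 37.7, 42.5, 13.3 and 42.3 CPM in control, 9.64, 8.6, 3.24, 4.15 and 12.9 CPM in dehydration and 25.1, 38.3, 28.3, 9.03 and 7.39 CPM in rehydration. Every control library lay above every dehydrated one, and the rehydrated libraries ran from the dehydrated range up to the control range. The log2 change from control to dehydration was -2.17 (SE 0.482, adjusted p = 0.0204) and from dehydration to rehydration 1.52 (SE 0.474, adjusted p = 0.0883), the latter not called by edgeR and called by DESeq2. The first call was lost when dehydration 3 or 4 or control 3 or 5 was left out, with an adjusted p of 0.0893 at most, and in a fit of the medulla libraries alone (adjusted p = 0.0731). H1-2 and H1.3 belong to the replication-dependent histone genes, whose mRNAs mostly end without a poly(A) tail, and the libraries were made by poly(A) selection. The change in any poly(A)-tailed share of these mRNAs was not tested.

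CPA5, carboxypeptidase A5, a metallocarboxypeptidase that removes amino acids from the ends of peptides, fell in the medulla on rehydration. CPA5 (ENSCDRG00005001058, chromosome 7, 65941795 to 65960995) held 131, 35.5, 19.6, 45.4 and 23.3 CPM in dehydrated medulla and 5.48, 4.06, 16.9, 3.28 and 13.1 CPM in rehydrated medulla. All 5 rehydrated libraries lay below all 5 dehydrated ones, and dehydration 1 stood well above the rest. The log2 change was -2.52 (SE 0.685, adjusted p = 0.0492). That value is near the threshold: leaving out any library but rehydration 3 or dehydration 5 ended the call, with an adjusted p of 0.161 at most, as did a fit of the medulla libraries alone (adjusted p = 0.0639). In control medulla the gene ranged 7.2 to 110.0 CPM, and the change from control to rehydration was -2.26 (SE 0.679, adjusted p = 0.139), not called.

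Of the unnamed genes that fell, ENSCDRG00005006816 (chromosome 11, 68909824 to 68914326) had the lowest adjusted p of any member in this comparison. Its levels were 536, 419, 868, 512 and 558 CPM in dehydrated and 301, 163, 290.4, 197 and 242 CPM in rehydrated medulla. The groups did not overlap, and the control libraries, at 397, 535, 622, 243 and 268 CPM, overlapped both. The log2 change was -1.23 (SE 0.262, adjusted p = 0.014), and it rose to an adjusted p of 0.0522 when dehydration 3, the highest library, was left out.

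The other, ENSCDRG00005015929 (chromosome 30, 22683074 to 22705033), held 48.1, 80.6, 233, 116 and 78.3 CPM in dehydrated and 32.9, 44.6, 19.8, 20.8 and 43 CPM in rehydrated medulla. The lowest dehydrated library lay above the highest rehydrated one. Its log2 change was -1.77 (SE 0.454, adjusted p = 0.0389), and leaving out rehydration 1, 3, 4 or 5 or dehydration 2, 3 or 4 ended the call (adjusted p at most 0.154). The call was also lost with the RNA integrity number, a measure of RNA quality, as a covariate.

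**Figure D2:**
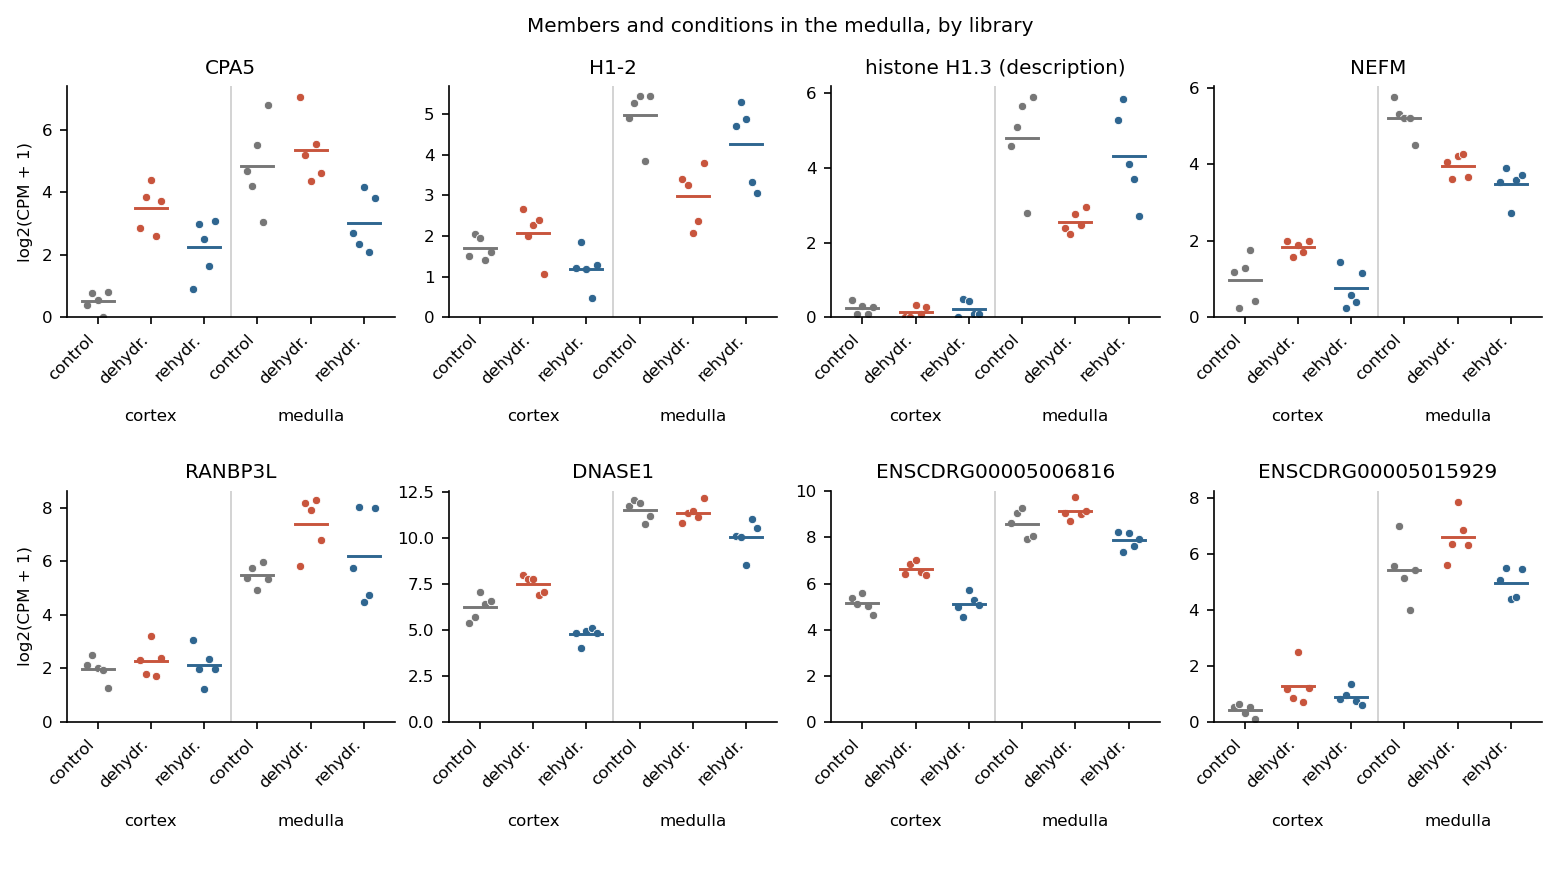
Levels of 8 members in the 30 libraries, as log2 of CPM plus 1 (y axis) by tissue and condition (x axis). Points are libraries and bars are means of 5. H1-2 and the histone H1.3 gene had their lowest medulla mean in dehydration, while CPA5, ENSCDRG00005006816 and ENSCDRG00005015929 were lower in rehydrated than in dehydrated medulla in every library.

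NEFM, the medium chain of neurofilaments, was the single member called in rehydrated against control medulla, where it was lower and 0.221% of all genes tested were called (0.0715% lower). DESeq2 called 3 members (2.22% of its genes). NEFM (ENSCDRG00005018075, chromosome 31, 7926709 to 7931954) had 53.7, 39, 36, 36 and 21.6 CPM in control, 15.8, 11.3, 17.7, 18.2 and 11.7 CPM in dehydration and 10.6, 14, 5.64, 11 and 12.3 CPM in rehydration. Every control library lay above every library of the other conditions. The log2 change was -1.87 (SE 0.413, adjusted p = 0.0461) in rehydration, where the control libraries again chose the member, and -1.40 (SE 0.407, adjusted p = 0.0963) in dehydration. The first adjusted p was near the threshold, and leaving out any single library but rehydration 4 ended the call (adjusted p at most 0.184). DESeq2 also called the change in dehydration. So did edgeR with the RNA integrity number as a covariate (adjusted p = 0.0247). A fit of the medulla libraries alone called it too (adjusted p = 0.0143).

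DNASE1, the most abundant member per length, was on average lower in rehydrated medulla but was not called. DNASE1 (ENSCDRG00005007241) lies on an unplaced scaffold and held 3366, 4168, 3763, 1697 and 2341 CPM in control, 1760.5, 2550.4, 2829.6, 2229.6 and 4515 CPM in dehydration and 1094, 1049, 373, 2108 and 1458 CPM in rehydration. Rehydration 4 reached into the dehydrated range, and the other four rehydrated libraries lay below it. The log2 change from dehydration to rehydration was -1.18 (SE 0.36, adjusted p = 0.0805) and from control to rehydration -1.40 (SE 0.362, adjusted p = 0.088). DESeq2 called both, and so did edgeR when rehydration 4 was left out (adjusted p = 0.0354 and 0.0285).

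RANBP3L, which codes for a Ran-binding protein, was among the members that varied most between medulla libraries. Its levels were 40.8, 53, 29.2, 62.3 and 39.1 CPM in control, 56.1, 287, 239, 308 and 111 CPM in dehydration and 52.4, 259, 21.2, 25.8 and 249 CPM in rehydration. In dehydration 4 of 5 libraries lay above every control library and in rehydration 2 of 5 did. Its change from control to dehydration was 2.08 (SE 0.529, adjusted p = 0.0506), just outside the threshold. It was called by DESeq2 and when dehydration 1 or 5 was left out.

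OGDHL varied most of all named members but CPA5, with a coefficient of variation of 91.8% over the 15 medulla libraries. It stood at 31.8, 12.9, 50.4, 54 and 87.2 CPM in control, 14.6, 14.5, 2.27, 0.0506 and 3.09 CPM in dehydration and 33.2, 17.4, 3.93, 71.7 and 62.5 CPM in rehydration. Dehydration 4 held almost none, and the groups overlapped. Neither its change from control, -2.84 (SE 0.933, adjusted p = 0.163), nor that on rehydration, 2.44 (SE 0.919, adjusted p = 0.157), was called.

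Several of the most medulla-enriched and most abundant named members were called in no comparison of medulla conditions. ANGPT2 averaged 164 ± 42.2 CPM (SD, n = 5) in control, 189 ± 52.9 CPM (SD, n = 5) in dehydration and 157 ± 29.1 CPM (SD, n = 5) in rehydration. STC1, stanniocalcin 1, a secreted glycoprotein that acts on calcium and phosphate handling, averaged 67.8, 88.4 and 78.2 CPM. ESRRB, an orphan nuclear receptor related to the oestrogen receptors, averaged 179, 202 and 182 CPM in the same order. SPOCK2, the extracellular proteoglycan testican-2, had the steadiest level of any member, with a coefficient of variation of 19.8% and means of 437, 436 and 516 CPM. PPP1R1B averaged 623, 683 and 606 CPM. For these genes a p that misses the threshold does not show that their levels were equal.

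Of 15 gene lists covering kidney cell types and pathways, 2 held a member. CLDN19, a tight junction claudin of the thick ascending limb needed for calcium and magnesium reabsorption, was the single member of the loop of Henle list. It held 87.4, 139, 68, 88.8 and 75.9 CPM in control, 69.8, 62.5, 72.3, 80 and 71.6 CPM in dehydration and 228, 125, 83.3, 113 and 110.4 CPM in rehydration of medulla. All rehydrated libraries lay above all dehydrated ones, but the log2 change of 0.91 (SE 0.336, adjusted p = 0.148) was not called. A fit of the medulla libraries alone did call it (adjusted p = 0.0384). In that list 8 of 20 genes have a symbol. None of the 8 was called between rehydrated and dehydrated medulla in the fit of all 30 libraries. LEF1, a transcription factor through which Wnt signals reach their target genes, was the member from the Wnt and BMP list (5 of 28 with a symbol, none called). It averaged 32.1 ± 6.81 CPM (SD, n = 5) in control, 39.9 ± 15.7 CPM (SD, n = 5) in dehydration and 31.8 ± 9.19 CPM (SD, n = 5) in rehydration of medulla.

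The members were also compared between conditions in the cortex, where they are low. Between dehydrated and control cortex 16 of 150 members were called, 15 higher and 1 lower, against 2.34% of all genes tested (1.28% higher and 1.06% lower), and DESeq2 called 24 (4.35% of its genes). The median log2 change of the members was 0.34 against 0.00 over all genes. The cortex control libraries entered the choice as the low side, which favours values that are higher elsewhere in cortex. Neither this count nor any single rise against control cortex given below is therefore free of the choice. The members that rose with a symbol were CPA5, GC, RAMP1, RBP7, STC1, ALX1, ANGPT2, TNMD, PPP1R1B, UGT8, ESRRB and SPOCK2, with 3 without one. All were still higher on average in the medulla of dehydrated camels.

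CPA5 went from 0.304, 0.712, 0.475, 0 and 0.754 CPM in control cortex to 6.32, 13.4, 20.2, 5.06 and 12.3 CPM in dehydrated cortex, and stood at 0.893, 6.93, 4.74, 2.15 and 7.5 CPM after rehydration. All 5 dehydrated libraries lay above all 5 control ones, and the rehydrated ones overlapped the dehydrated. The log2 change in dehydration was 4.59 (SE 0.846, adjusted p = 0.00281) and that from dehydration to rehydration -1.27 (SE 0.675, adjusted p = 0.381). In medulla the same gene was lower in rehydrated than dehydrated camels. After rehydration the gene was not called between the tissues, with the cortex at a mean of 4.44 CPM and the medulla at 8.57 CPM.

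GC rose from 8.59, 3.11, 4.67, 2.48 and 1.37 CPM in control cortex to 15.1, 69.2, 322, 7.72 and 23.4 CPM in dehydrated cortex, a log2 change of 4.38 (SE 1, adjusted p = 0.0154). One control library reached into the dehydrated range, and cortex dehydration 3, at 322 CPM, was higher than every medulla library of that condition. Without it the log2 change was 2.85 and was not called (adjusted p = 0.107), nor was the change called in a fit of the cortex libraries alone (adjusted p = 0.0516). Rehydrated cortex held 1.92, 3.2, 11.2, 7.59 and 74.6 CPM, a log2 change of -2.02 (SE 0.887, adjusted p = 0.263) from dehydration. Leaving out rehydration 5, the highest of its group, made that a call (adjusted p = 0.0221). In medulla GC averaged 365, 166 and 160.2 CPM in control, dehydration and rehydration, with no call, and its change from control to dehydration was -1.25 (SE 0.859, adjusted p = 0.66).

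RBP7 rose from 0.0761, 1.3, 0.554, 0.738 and 0.549 CPM to 0.732, 7.13, 21.8, 1.62 and 12.5 CPM in cortex, a log2 change of 3.66 (SE 0.754, adjusted p = 0.00677), with control 2 and control 4 above the lowest dehydrated library. After rehydration it stood at 0.275, 2.61, 0.778, 1.45 and 3.92 CPM, a change of -2.17 (SE 0.668, adjusted p = 0.0875) from dehydration that DESeq2 called, as did edgeR without rehydration 5 or dehydration 1. RAMP1 rose from 0.152, 0.0648, 0.237, 0.402 and 0.206 CPM to 0.798, 4.16, 6.57, 0.13 and 4.23 CPM, a change of 3.79 (SE 0.859, adjusted p = 0.0146), and cortex dehydration 4 stayed within the control range. The RAMP1 call was lost without cortex dehydration 3 (adjusted p = 0.0522) and in a fit of the cortex libraries alone (adjusted p = 0.0629). Its level was 0.412, 2.43, 2.12, 0.126 and 5.57 CPM after rehydration, a change of -0.46 (SE 0.67, adjusted p = 0.811). In both genes, as in GC, dehydration 3 was the highest dehydrated cortex library.

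The same library was the highest for TTR and F10, both named after their values were seen. TTR had 0.913, 1.1, 8.55, 8.52 and 1.85 CPM in control and 19.6, 28.5, 73.2, 3.18 and 42.3 CPM in dehydrated cortex, a change of 2.87 (SE 0.862, adjusted p = 0.0754), not called by edgeR and called by DESeq2. F10 had 0.152, 0.194, 1.11, 0.134 and 0.0686 CPM in control and 0.532, 3.64, 5.56, 0.13 and 2.25 CPM in dehydration, a change of 2.84 (SE 0.924, adjusted p = 0.107), and OGDHL one of 3.34 (SE 1.32, adjusted p = 0.202). F10 was called without cortex control 3 (adjusted p = 0.0417) and TTR without cortex dehydration 4 (adjusted p = 0.0481). The sum of all 150 members was 3031 CPM in cortex dehydration 3 and 1217 to 1938 CPM in the other four libraries of the group, and the summed proximal tubule markers were lowest there (699 CPM, against 948 to 1275). Over the whole dehydrated cortex group those markers ran from 699 to 1275 CPM, against 1126 to 2662 in control and 2109 to 3132 in rehydrated cortex. The summed endothelial markers, 7 of 18 with a symbol, ran from 394 to 596 CPM in dehydrated cortex, against 278 to 363 in control and 288 to 366 in rehydration. The summed loop of Henle markers, 8 of 20 with a symbol and the member CLDN19 among them, ran from 10060 to 16477 CPM in dehydrated cortex, against 6929 to 8131 in control and 9076 to 13778 in rehydration, so the dehydrated libraries lay above every control one. Of these 8 genes 1, AQP1, was called higher in dehydrated than control cortex. Their median log2 change was -0.07, so the rise of the sum was not general to the list. Not every tubule list outside the proximal tubule was higher. The summed collecting duct principal cell markers, 10 of 24 with a symbol, ran from 898 to 1107 CPM in dehydrated cortex, against 1085 to 1567 in control. The summed intercalated cell markers, 5 of 17 with a symbol, ran from 861 to 1062 CPM, against 1054 to 1354 in control. The part of such shifts in these results was not tested. Without cortex dehydration 3 the count of members called against control was 11, against 1.21% of all genes in that fit, and both were lower than with it.

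ANGPT2 and PPP1R1B rose in dehydrated cortex both with and without that library. ANGPT2 went from 4.94, 3.43, 1.58, 2.55 and 2.81 CPM in control to 8.38, 11, 9.96, 5.58 and 16.4 CPM in dehydration, with no overlap, a log2 change of 1.70 (SE 0.314, adjusted p = 0.00281). PPP1R1B went from 24.3, 35.5, 61, 35.8 and 60.6 CPM to 107, 131, 207, 92.9 and 88.9 CPM, again with no overlap and a change of 1.45 (SE 0.283, adjusted p = 0.00486). For both, the call was made after leaving out each of the 10 libraries in turn. Each omission still used control libraries that entered the choice as the low side, so it does not remove that bias. STC1 went from 3.65, 5.37, 2.06, 1.94 and 0.892 CPM to 13, 13.7, 6.22, 12.8 and 12.6 CPM, a change of 2.07 (SE 0.522, adjusted p = 0.0287), and dehydration 3 was here the lowest of its group. This call was lost when any library but dehydration 3 or control 2 was left out, with an adjusted p of 0.0823 at most, and with the RNA integrity number as a covariate (adjusted p = 0.0574). ESRRB rose by a log2 change of 0.87 (SE 0.187, adjusted p = 0.0103) and SPOCK2 by 0.87 (SE 0.194, adjusted p = 0.0133), the latter not called without dehydration 3 (adjusted p = 0.0603).

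The single member that fell in dehydrated cortex was TSPAN1, a tetraspanin membrane protein, named after its values were seen. Its levels were 5.55, 7.77, 4.99, 4.16 and 3.84 CPM in control and 2, 1.86, 2.88, 1.04 and 1.43 CPM in dehydration, with no overlap and a log2 change of -1.54 (SE 0.402, adjusted p = 0.0344). The adjusted p rose to 0.0985 at most when libraries were left out in turn, and 7 of the 10 omissions (dehydration 1, 2, 4 or 5 and control 1, 2 or 4) ended the call, as did the RNA integrity number as a covariate (adjusted p = 0.0679). In the medulla TSPAN1 averaged 97.6, 61.7 and 79.5 CPM in control, dehydration and rehydration and was not called.

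**Figure D3:**
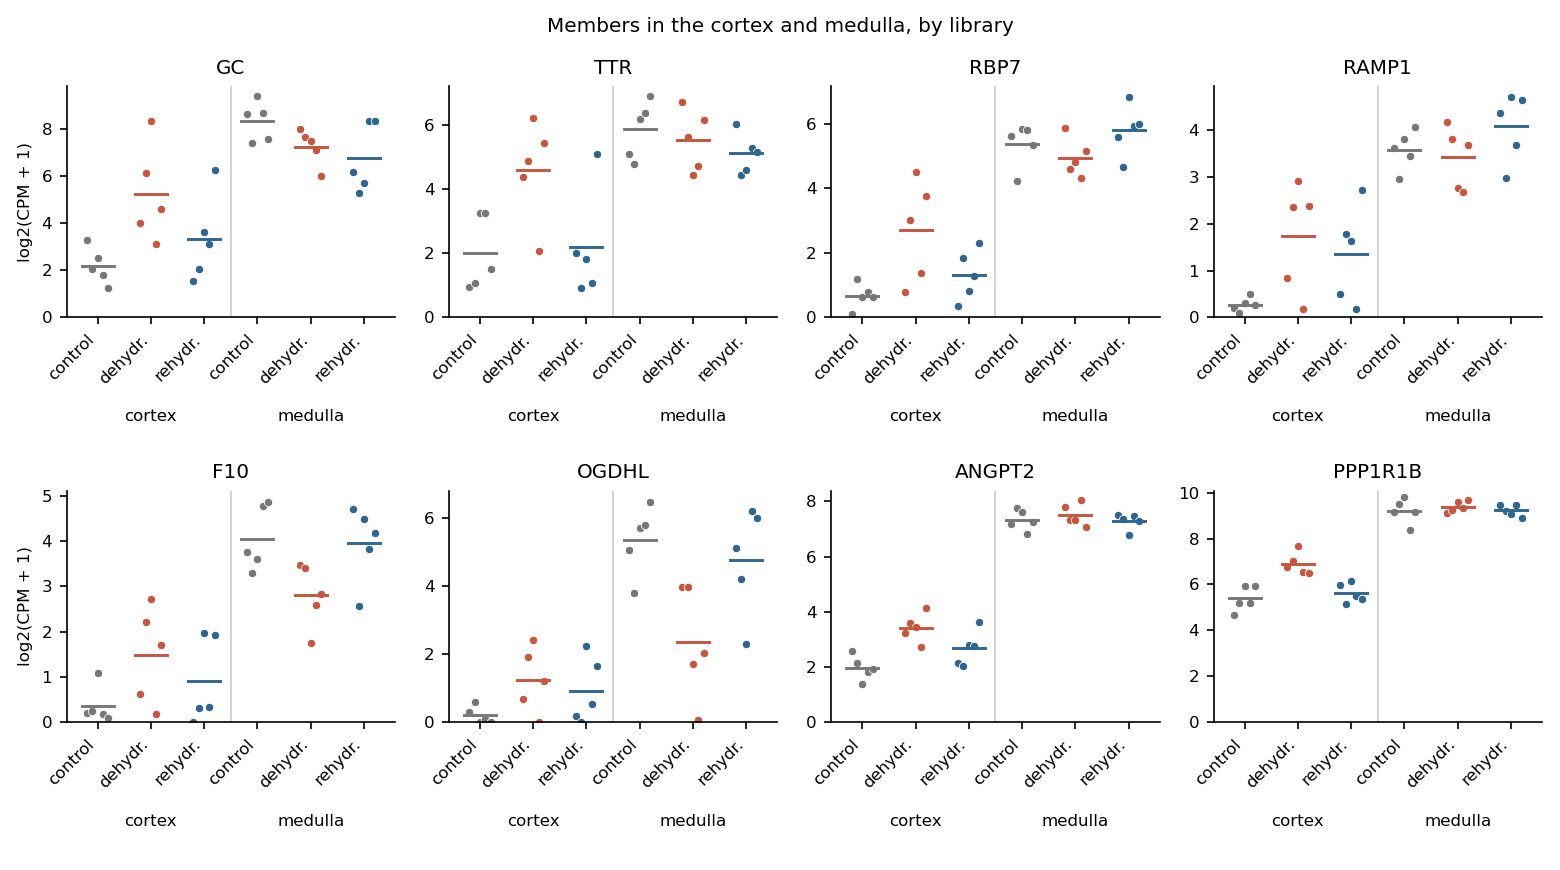
Levels of 8 members in the 30 libraries, as log2 of CPM plus 1 (y axis) by tissue and condition (x axis), with points for libraries and bars for means of 5. In cortex GC, TTR, RBP7, RAMP1, F10 and OGDHL were highest in 1 dehydrated library, number 3, whereas ANGPT2 and PPP1R1B were higher in all 5 dehydrated libraries than in any control library. The cortex control values entered the choice of the members as the low side.

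Between rehydrated and dehydrated cortex, groups that the choice did not use, 7 of 150 members were called, all lower, against 2.15% of all genes tested in either direction and 1.21% lower. DESeq2 called 11 members (4.52% of its genes), and without cortex dehydration 3 the count by edgeR was 2, against 0.973% of all genes in that fit. The median log2 change of the members was -0.07 against 0.03 over all genes. The largest fall was that of DNASE1, whose cortex levels were 40.7, 50.2, 134, 84.5 and 94.4 CPM in control, 252, 215, 217, 119.5 and 132 CPM in dehydration and 27.6, 15.3, 30.1, 33.7 and 28 CPM in rehydration. All rehydrated libraries lay below all those of the other conditions. The change was -2.78 (SE 0.382, adjusted p = 0.00034), and it was called after leaving out each library in turn, with an adjusted p of 0.00212 at most. The gene ENSCDRG00005006816 followed it, from 85.6, 114, 128, 89.7 and 82.4 CPM to 30.9, 22.8, 51.8, 38.6 and 32.3 CPM, a change of -1.49 (SE 0.265, adjusted p = 0.00284), and was the 1 member called in this direction in both tissues. In cortex it had risen from 40.1, 34, 47.6, 31.9 and 23.9 CPM in control, a change of 1.46 (SE 0.265, adjusted p = 0.00259).

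PPP1R1B fell from the dehydrated values given above to 61.4, 34.5, 70.6, 44 and 40.8 CPM in rehydrated cortex, a log2 change of -1.29 (SE 0.282, adjusted p = 0.0133). The call was lost without dehydration 3 (adjusted p = 0.0571). CNTNAP2, a cell adhesion protein of the neurexin family, fell from 1.06, 1.56, 3.29, 2.53 and 2.47 CPM to 1.03, 0.355, 0.495, 1.2 and 0.682 CPM, a change of -1.54 (SE 0.365, adjusted p = 0.0234). Its groups overlapped only by dehydration 1 and rehydration 4, and leaving out rehydration 2 or 3 or dehydration 3 or 4 ended the call (adjusted p at most 0.072), as did a fit of the cortex libraries alone (adjusted p = 0.0879). NEFM fell by 1.71 (SE 0.468, adjusted p = 0.0491) and ESRRB by 0.68 (SE 0.186, adjusted p = 0.0491) on the log2 scale, both near the threshold, and each call was lost in 8 of the 10 omissions of a library. The NEFM call was made only without rehydration 1 or 5, and the ESRRB call only without rehydration 4 or dehydration 5. In a fit of the cortex libraries alone neither was called (adjusted p = 0.197 for NEFM and 0.126 for ESRRB). The 1 remaining call was a gene without a symbol. Between rehydrated and control cortex no member was called by edgeR (0.039% of all genes tested), 25 had an unadjusted p under 0.05 (8.68% of all genes tested) and DESeq2 called 4 (0.748% of its genes). The cortex control libraries entered the choice as the low side here too. That favours higher values in rehydrated cortex, so these counts do not measure a change left after rehydration.

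Whether a member's change differed between the tissues was tested as an interaction. No member was called for the difference between tissues of the rehydration against dehydration change (0.0195% of all genes tested), with 16 members at an unadjusted p under 0.05 (8.95% of all genes) and 1 called by DESeq2 (0.449% of its genes). For the change from control to dehydration, which reuses the libraries that chose the members, none was called either (0.039%), with 34 at an unadjusted p under 0.05 (7.23% of all genes), 9 called by DESeq2 (0.346% of its genes) and a lowest adjusted p of 0.055 by edgeR. A change called in one tissue and not in the other is therefore not shown to differ between them.

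Together the 150 members made up 1.07% to 3.15% of the counted read pairs of a medulla library. Their summed level was 19269, 29050, 21249, 18616 and 21454 CPM in control medulla, 16815, 20706, 25290.3, 31477 and 21065 CPM in dehydration, and 22962, 21929, 10669, 19767 and 22380.0 CPM in rehydration. Control 2 and dehydration 4 were the highest, and rehydration 3 was below every other medulla library. The mean was 21928 ± 4167 CPM in control, 23071 ± 5575 in dehydration and 19541 ± 5105 in rehydration (SD, n = 5 each), so the groups overlapped widely. In cortex the means were 1257 ± 316, 1946 ± 665 and 1451 ± 475 CPM. The medulla sums rested in large part on 2 members, those of highest mean CPM in control medulla. Without these 2 the medulla libraries ran from 9282 to 14987 CPM in control, 9451 to 17442 in dehydration and 7495 to 14333 in rehydration. The medulla means above are therefore in large part the level of 2 genes.

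**Figure D4:**
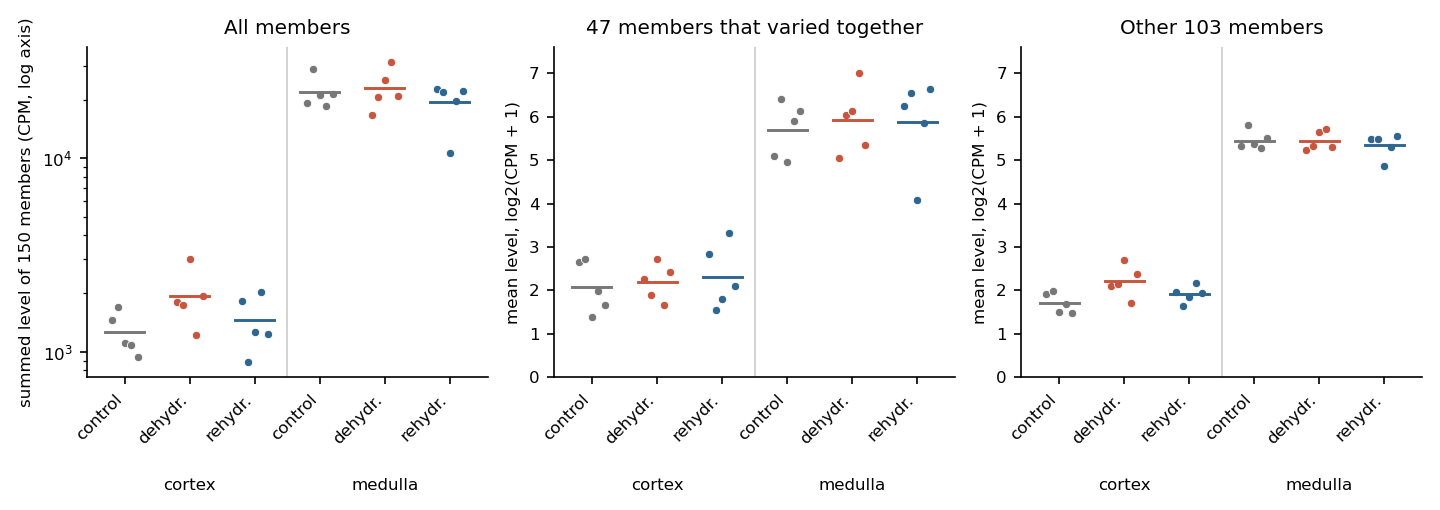
Summed level of the 150 members in each library, in CPM on a log axis, by tissue and condition. Separate panels show the mean log2 level of the 47 members that varied together in medulla and of the other 103. Over the 150 members every medulla library lay above every cortex library, and rehydration 3 was the lowest medulla library (10669 CPM).

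The members had a higher median coefficient of variation between medulla libraries than all genes at 10 CPM or more, and many varied together. Over the 15 medulla libraries, with the conditions pooled, this median was 46.5% for the members and 23.0% for all 9754 genes at 10 CPM or more. The control libraries among the 15 chose the members. The 9754 genes include the members and were not matched to them for level, so the contrast is a description. After subtracting each group's mean from log2(CPM + 1), the median correlation between pairs of members over the 15 medulla libraries was 0.36, against 0.02 for pairs of all these genes, and 1 component held 57.3% of the members' variance. These points share their libraries, so the correlations are a description. A set of 47 members, chosen by these values, each had a correlation of at least 0.9 with the mean of the other members. They had longer exon models than the other members, with a median of 4021 against 2380 bases.

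Named genes of this set, chosen after their values were seen, were PROSER2, CDH13, DDX6, DOCK9, CTTNBP2NL, VCL, HIP1, RAB11FIP1, SMG1, TRIM2 and CCDC186. VCL codes for vinculin, which links integrins to actin, HIP1 for an adaptor of clathrin-coated pits, DDX6 for an RNA helicase of processing bodies, and SMG1 for the kinase of nonsense-mediated decay. VCL stood at 68.5, 206, 71, 111 and 123 CPM in control, 65.5, 113, 117, 147 and 65.4 CPM in dehydration and 136, 193, 41.1, 114 and 165 CPM in rehydration of medulla. SMG1 stood at 10, 33.6, 9.81, 21 and 37.2 CPM, 10.9, 33.5, 22.1, 90 and 12.5 CPM and 26.5, 52, 4.44, 18.4 and 45.9 CPM in the same order. In both genes control 2, dehydration 4 and rehydration 2 were among the highest libraries and rehydration 3 the lowest of its group, and no condition stood apart. All 47 had their lowest rehydrated level in medulla rehydration 3, which also had the lowest RNA integrity number of its group. As a description over 15 libraries, the mean level of the 150 members had a correlation with that number, both relative to the group means, of 0.52 in medulla (0.19 without rehydration 3) and of -0.38 in cortex. The proximal tubule markers of medulla rehydration 3 summed to 344 CPM, within the range of its group (295 to 663 CPM). Its loop of Henle markers were the lowest of the group, at 25310 CPM against 25919 to 34758, and its osmoprotective genes, 8 of 21 with a symbol, the highest of any library, at 14041 CPM. The part of these differences in the result was not tested. None of the 47 was called between dehydration and control or between rehydration and dehydration in medulla, but so few of all genes tested were (0.969% and 1.99%) that a count of 0 says nothing about a set of this size.

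A further 23 members had a correlation below 0 with the mean of the others. They included GC, OGDHL, CPA5, RBP7, F10, TTR, SPOCK2, H1-2, RAMP1 and TNMD, 8 of which were not called as medulla-enriched in dehydration or rehydration. In cortex the members also varied together, with a median pair correlation of 0.34 against 0.08 for all genes and 51.8% of the variance on 1 component, and 16 members at 0.9 or more.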

How the data were processed

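Polyadenylated RNA of 30 kidney libraries, 15 of cortex and 15 of medulla, was sequenced in read pairs. Reads were trimmed with BBDuk and aligned by the authors to the CamDro2 assembly, with STAR per the methods, although the alignment names in the file header speak of Rsubread. The deposited table gives raw counts of read pairs per gene on the reverse strand, made by the authors with featureCounts 1.6.2 and Ensembl gene models, and holds no normalization. The totals of 12634346 to 20005136 set the precision.

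CPM were computed from the library totals. All 30 libraries entered 1 fit of 6 groups in edgeR 4.0.16 (limma 3.58.1, R 4.3.3) with TMM normalization, the default filter on low counts and the quasi-likelihood test, adjusted by Benjamini-Hochberg over 15376 genes at a threshold of 0.05. The biological coefficient of variation was 34.0%. The steps were checked on simulated data with known changes. Alternatives were DESeq2 1.42.0, other size factors, filters, samples, covariates, blocks and rules of choice, and leaving out each library. The members and lists were chosen with earlier results of these data known. No p is given for sums over the members.

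Symbols came from the study's lists of changed genes, RefSeq and the article, and 42 of 42 member symbols that could be checked lay on the chromosome that RefSeq gives. The genes named were the 10 with a symbol and the highest control ratio, the 5 of highest mean CPM, those called between conditions (up to 10 per medulla and 5 per cortex comparison, by size of change), members of the fixed lists, the 5 of highest coefficient of variation and the 5 on either side of the boundary, given as a range. Of these, 1 gene is not reported here. ALX1, TNMD, UGT8, MCF2L, TTR, F10, TSPAN1, the 47 covarying members and the identifiers printed were chosen after their values were seen.

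Cortex and medulla with the same animal label had correlations of their deviations from the group means of -0.13 to 0.394 in control, -0.164 to 0.318 in dehydration and -0.521 to 0.524 in rehydration. The column names of the cortex rehydration libraries, and of dehydration 5 in both tissues, carry other animal numbers than the labels, so tissues were compared with no block, with each numbering as an alternative.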

Additional observations from a re-analysis of the deposited data

Results flagged for a closer look

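Values that lie far from the other 4 libraries of their group were looked for with Dixon's test at its 95% critical value in 162 groups of 5 values, the summed members and 26 members of the text over 6 groups. It marked 14 of them (8.64%). About 5% is the rate for independent, normally distributed values. These groups hold CPM, share libraries and include members named for their high variation. The 8.64% therefore cannot be read as an excess over chance.

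The summed level of the 150 members was 29050 CPM in medulla control 2, against 18616 to 21454 CPM in the other libraries of its group, and 10669 CPM in medulla rehydration 3, against 19767 to 22962 CPM. In medulla CPA5 stood at 131 CPM in dehydration 1 (others 19.6 to 45.4), ENSCDRG00005015929 at 126 CPM in control 2 (others 15.0 to 46.5), CLDN19 at 228 CPM in rehydration 1 (others 83.3 to 125), and SMG1 at 90.0 CPM in dehydration 4 (others 10.9 to 33.5).

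In cortex dehydration 3 GC stood at 322 CPM (others 7.72 to 69.2), ENSCDRG00005015929 at 4.70 CPM (others 0.649 to 1.32) and STC1 at 6.22 CPM, below the others (12.6 to 13.7). In cortex rehydration 5 GC stood at 74.6 CPM (others 1.92 to 11.2), TTR at 33.1 CPM (others 0.889 to 3.02) and TSPAN1 at 1.42 CPM, below the others (3.57 to 4.43). STC1 stood at 14.4 CPM in cortex rehydration 4 (others 2.96 to 6.15), and F10 at 1.11 CPM in cortex control 3 (others 0.0686 to 0.194).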

How the results depend on the processing

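The tissue difference held under every alternative run: 140 to 145 members were called higher in medulla in dehydration and 146 to 149 in rehydration when a library was left out, and blocking on the animal, by the labels or by the column names, gave 142 or 145 and 149 or 149. All 5 medulla libraries lay above the cortex libraries for 140 to 144 members in dehydration and 132 to 145 in rehydration. The overlap of the top 150 ran from 91 to 103 and from 102 to 108. Other rules of choice shared 127 (pseudocount of 0.1 CPM), 59 (minimum of 50 CPM) and 144 (TMM-normalised CPM) members. The counts between conditions were less stable. For rehydration against dehydration in medulla (4 members), DESeq2 called 7 and leaving out a library gave 0 (without medulla dehydration 3) to 4. For dehydration against control in medulla (3) these values were 6 and 1 to 4, with 5 under the 50 CPM minimum. For rehydration against control in medulla (1) they were 3 and 0 to 2, with 0 under that minimum and 0 with no filter on low counts. In cortex they were 11 and 2 (without dehydration 3) to 11 (without rehydration 5) for rehydration against dehydration (7), with 4 in a fit of the cortex libraries alone. For dehydration against control in cortex (16) they were 24 and 11 to 18, and for rehydration against control (0) 4 and 0 to 0. For the interactions they were 1 and 0 to 0 on rehydration, and 9 and 0 to 2 on dehydration, with 1 under RNA integrity as a covariate. The cause was not tested. Replicate numbers did not pair the animals of different conditions, and with the number as a replicate block the calls were 1, 0 and 0 in medulla and 3 and 7 in cortex, in the order above. The difference in summed CPM between rehydrated and dehydrated medulla was -3529, and -5093 to -1311 when a library was left out. These sums rest in large part on 2 members of high level. Of 748 alternative values for 44 named results, 621 stayed on the same side of the threshold, 105 lost a call, 22 gained one and 0 changed direction. At these depths members under 1 CPM rest on few read pairs per cortex library.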

Other observations

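Beside the genes that changed in one comparison, some members had a high medulla level in every condition. The most abundant member by CPM, the unnamed gene ENSCDRG00005006494 on chromosome 6, chosen after its values were seen, averaged 7554 ± 1395 CPM in control, 7738 ± 2469 CPM in dehydration and 6428 ± 2246 CPM in rehydration of medulla (SD, n = 5 each). Its cortex means were 411 ± 119.7, 535 ± 150.4 and 520.5 ± 199 CPM. It was called in no comparison between conditions, and medulla rehydration 3 held its lowest medulla level, at 2800.2 CPM. It is 1 of the 47 members that varied together.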
